A study of Mus musculus with 21 samples.

Results

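Elovl6, Pgap1 and Ktn1 are 3 long mouse genes with opposite ratios of chromatin to cytoplasm crosslinks for the SR proteins SRSF3 and SRSF7. Both proteins were listed in all 3 fractions of each gene. The members were chosen on pooled totals, as long loci with more SRSF3 cDNAs in chromatin than in cytoplasm and more SRSF7 cDNAs in cytoplasm than in chromatin. That choice fixes the direction of both contrasts, so these totals are a description and support nothing. Where along each gene the cDNAs lie was not used in the choice. The 3 intervals held 4529 of the 1387615 listed positions of the series, and they are 3 of 34919 loci that form when listed positions on 1 strand are joined at gaps of up to 10000 nt.

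The study applied iCLIP to fractionated P19 cells, a mouse embryonal carcinoma line, in 6 groups: SRSF3-GFP in chromatin, nucleoplasm and cytoplasm (4 replicates each) and SRSF7-GFP in chromatin, nucleoplasm and cytoplasm (3 replicates each). All 21 samples carry a GFP fusion and were crosslinked with 100 mJ/cm2 of 254 nm light before fractionation, per the labels. In iCLIP the bound RNA is reverse transcribed, and the cDNA ends next to the nucleotide that was linked to the protein, so each listed position is 1 nucleotide with a cDNA count. How the fusion genes are driven, and whether each line is 1 clone, is not given in the sources used here. No sample without a tagged protein is among them, and the cell line was not checked against marker genes, because no annotation of build mm9 was used.

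SR proteins bind RNA through an RNA recognition motif and contact other splicing factors through a domain rich in serine and arginine. They first meet the nascent transcript on chromatin, where introns are still present. SRSF3 and SRSF7 also shuttle between nucleus and cytoplasm and are known as adaptors of mRNA export. The products of all 3 genes reside in the membrane of the endoplasmic reticulum. ELOVL6 is the elongase that turns palmitate into stearate, PGAP1 removes an acyl chain from the inositol of GPI anchors, and kinectin, the product of Ktn1, is a receptor for the motor protein kinesin.

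The intervals are given in mm9 coordinates. Elovl6 spans chr3:129235325-129342573 on the plus strand (107 kb), Pgap1 chr1:54526595-54614497 on the minus strand (87.9 kb) and Ktn1 chr14:48269019-48362074 on the plus strand (93.1 kb). Each interval equals 1 joined locus and ends at its outermost listed positions, so its ends are not annotated gene ends. Exons, introns and untranslated regions could not be assigned, and positions are given instead as the distance from the 5′ end of the interval in the direction of transcription. A RefSeq table of another build, GRCm38.p6, gives the 3 genes the same chromosomes and strands. In that table Gm51623, a lncRNA gene on the opposite strand, overlaps Pgap1, and Gm35986, also a lncRNA gene on the opposite strand, overlaps Elovl6. No position was listed on the opposite strand of any of the 3 intervals in any file, that is 0 cDNAs in all 6.

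Each deposited list pools the replicates of its group. The lists held between 248498 cDNAs (SRSF7 chromatin) and 1768665 cDNAs (SRSF3 chromatin), over 58686 to 870234 positions. With 1 pooled list per group there is no spread between replicates and no p-value. Levels are given as CPM, cDNAs per 1000000 listed cDNAs of the file, with exact 95% Clopper-Pearson intervals. Ratios of levels are on the log2 scale and carry conditional exact 95% binomial intervals. All intervals cover counting error only. The SRSF3 chromatin list is the deepest, and a weak position passes the authors' threshold more easily in a deeper list. The part of depth in the differences reported was not tested. The RNA content of the fractions was not measured, so more transcript in a fraction and more binding per transcript cannot be told apart.

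Elovl6 showed the widest gap between fractions for SRSF3. It had 1257 CPM in SRSF3 chromatin (95% interval 1205 to 1310.2; 2223 cDNAs at 1406 positions), 409 in SRSF3 nucleoplasm (341 to 486; 129 cDNAs at 102 positions) and 42.8 in SRSF3 cytoplasm (21.4 to 76.6; 11 cDNAs at 11 positions). For SRSF7 it had 282 CPM in chromatin (220 to 356; 70 cDNAs at 58 positions), 1222 in nucleoplasm (1095 to 1359.5; 336 cDNAs at 277 positions) and 1277 in cytoplasm (1164 to 1398; 469 cDNAs at 388 positions). SRSF3 levels thus stepped down through the 3 fractions without overlap of their intervals. SRSF7 chromatin lay below the other SRSF7 fractions, whose intervals overlapped. The chromatin level was 29.4-fold the cytoplasm level for SRSF3, a log2 ratio of 4.88 (4.03 to 5.88), and the log2 ratio was -2.18 for SRSF7 (-2.56 to -1.82). The SRSF3 ratio was 3.11 with positions in place of cDNAs and 4.18 with mitochondrial RNA and the 10 highest loci left out of the totals.

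Pgap1 had the same order of fractions, downward for SRSF3 and upward for SRSF7. SRSF3 gave 894 CPM in chromatin (851 to 939.6; 1582 cDNAs), 412 in nucleoplasm (344 to 489; 130 cDNAs) and 105 in cytoplasm (69.2 to 153; 27 cDNAs). SRSF7 gave 52.3 in chromatin (27.9 to 89.5; 13 cDNAs), 356 in nucleoplasm (289 to 434; 98 cDNAs) and 751 in cytoplasm (665 to 845; 276 cDNAs). The intervals of the 3 fractions did not overlap within either protein. The log2 ratio of chromatin to cytoplasm was 3.09 for SRSF3 (2.54 to 3.70) and -3.84 for SRSF7 (-4.77 to -3.05). Under the same alternatives the SRSF3 ratio was 1.62 and 2.39, and it was 4.30 over positions with at least 2 cDNAs. The 13 cDNAs in SRSF7 chromatin sat at 11 positions, so statements on that list rest on very few counts.

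Ktn1 had the fewest listed cDNAs, 990 over the 6 files, against 3238 for Elovl6 and 2126 for Pgap1. SRSF3 gave 251 CPM in chromatin (228 to 276; 444 cDNAs), 34.9 in nucleoplasm (17.4 to 62.4; 11 cDNAs) and 38.9 in cytoplasm (18.7 to 71.5; 10 cDNAs), so nucleoplasm and cytoplasm could not be separated. SRSF7 gave 201 in chromatin (149 to 265; 50 cDNAs), 556 in nucleoplasm (472 to 652; 153 cDNAs) and 877 in cytoplasm (784 to 978; 322 cDNAs), without overlap. The log2 ratio of chromatin to cytoplasm was 2.69 for SRSF3 (1.80 to 3.76) and -2.12 for SRSF7 (-2.58 to -1.69). The SRSF3 ratio was 1.90 with positions counted and 1.99 with the smaller totals, and the SRSF7 ratio was -3.54 over positions with at least 2 cDNAs.

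**Figure D1:**
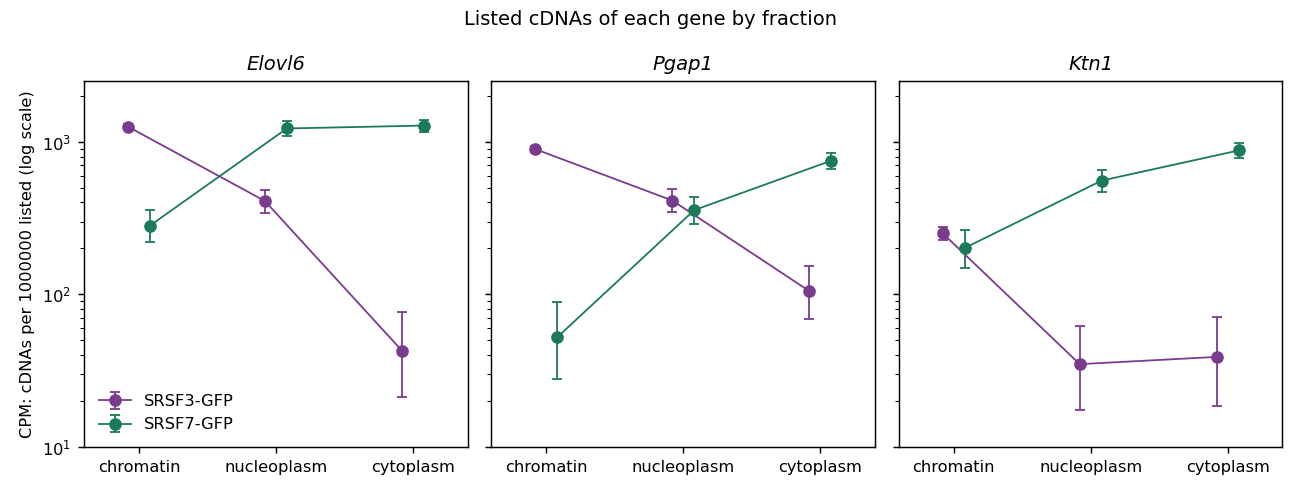
CPM (log axis) of Elovl6, Pgap1 and Ktn1 in chromatin, nucleoplasm and cytoplasm for SRSF3-GFP and SRSF7-GFP, 1 pooled list per point. Bars are exact 95% intervals of counting error, lines join fractions of 1 protein, and in each panel SRSF3 is highest in chromatin while SRSF7 is highest in cytoplasm, with nucleoplasm and cytoplasm of SRSF7 overlapping for Elovl6.

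In cytoplasm SRSF3 lay below SRSF7 in all 3 genes. There SRSF3 over SRSF7 gave a log2 ratio of -4.90 for Elovl6 (-5.91 to -4.05), -2.84 for Pgap1 (-3.47 to -2.27) and -4.49 for Ktn1 (-5.57 to -3.60). On chromatin the ratio was 2.16 for Elovl6 (1.81 to 2.52) and 4.10 for Pgap1 (3.32 to 5.01), while Ktn1 was at 0.32 with an interval that spans 0 (-0.10 to 0.77). In nucleoplasm the ratio was -1.58 for Elovl6 (-1.88 to -1.28), 0.21 for Pgap1 (-0.18 to 0.60) and -4.00 for Ktn1 (-5.03 to -3.12). Pgap1 was therefore not separable between the proteins in nucleoplasm, and Ktn1 was not separable on chromatin. The choice of genes favours a low ratio of SRSF3 to SRSF7 in cytoplasm and a high one on chromatin. The ratios in these fractions are thus a description only.

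Across all loci with at least 50 cDNAs in chromatin and cytoplasm together and at least 10 in each, 20.8% of 1050 loci had a 95% interval beyond 2-fold on the chromatin side for SRSF3. For SRSF7, 16.8% of 852 loci lay beyond 2-fold on the cytoplasm side. Of 547 loci compared in both proteins, 3.84% (21 loci) did both, the 3 genes among them by their choice, and 4.2% (23 loci) did the reverse. On the opposite sides lay 38% of the loci for SRSF3 (cytoplasm) and 22.3% for SRSF7 (chromatin). Among loci of at least 50 kb the shares were 59.9% of 142, 18.9% of 190 and 16.9% of 89 (15 loci), with 4.93% and 21.1% on the opposite sides and 0% of 89 in the reverse combination. The median log2 ratio of chromatin to cytoplasm was -0.74 over all SRSF3 loci and 2.11 over those of at least 50 kb. The SRSF7 medians were 0.01 and -0.12. The span of a locus is set by listed positions, and SRSF3 chromatin supplied 870234 of the 1387615, so the 50 kb filter favours loci that are high in that list and nothing is read from the values of long loci. With listed positions joined at gaps of up to 1000 nt, 121 loci lay on the chromatin side for SRSF3, against 218, and 3 loci did both, against 21.

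Along Elovl6, SRSF3 on chromatin and SRSF7 in cytoplasm were listed mainly at opposite ends. Of the SRSF3 chromatin cDNAs, 82.1% (80.4 to 83.6) fell in the first 4 deciles of the interval (10 stretches of equal length, counted from the 5′ end) and 2.20% (1.64 to 2.90) in the last decile. Of the SRSF7 cytoplasm cDNAs, 3.84% (2.29 to 5.998) fell in the first 4 deciles and 91.5% (88.6 to 93.8) in the last decile, a stretch of 10.7 kb. The median cDNA lay 19.5 kb from the 5′ end in SRSF3 chromatin and 103 kb from it in SRSF7 cytoplasm.

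The fractions of 1 protein also differed in where they touched Elovl6. For SRSF3, the last decile held 49 of 2223 cDNAs in chromatin, 90 of 129 in nucleoplasm (69.8%; 61.1 to 77.5) and 0 of 11 in cytoplasm (0%; 0 to 28.5). For SRSF7, it held 33 of 70 cDNAs in chromatin (47.1%; 35.1 to 59.4), 293 of 336 in nucleoplasm (87.2%; 83.2 to 90.6) and 429 of 469 in cytoplasm. SRSF3 in nucleoplasm was thus listed mostly at the 3′ end, as SRSF7 was in nucleoplasm and cytoplasm. A further 27 of the 129 SRSF3 nucleoplasm cDNAs (20.9%) lay in the first decile, which held 691 of the 2223 SRSF3 chromatin cDNAs. By position, 34 of the 102 SRSF3 nucleoplasm positions were within 5 nt of an SRSF3 chromatin position. The other SRSF7 chromatin cDNAs lay mainly in the first decile, with 33 of 70.

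**Figure D2:**
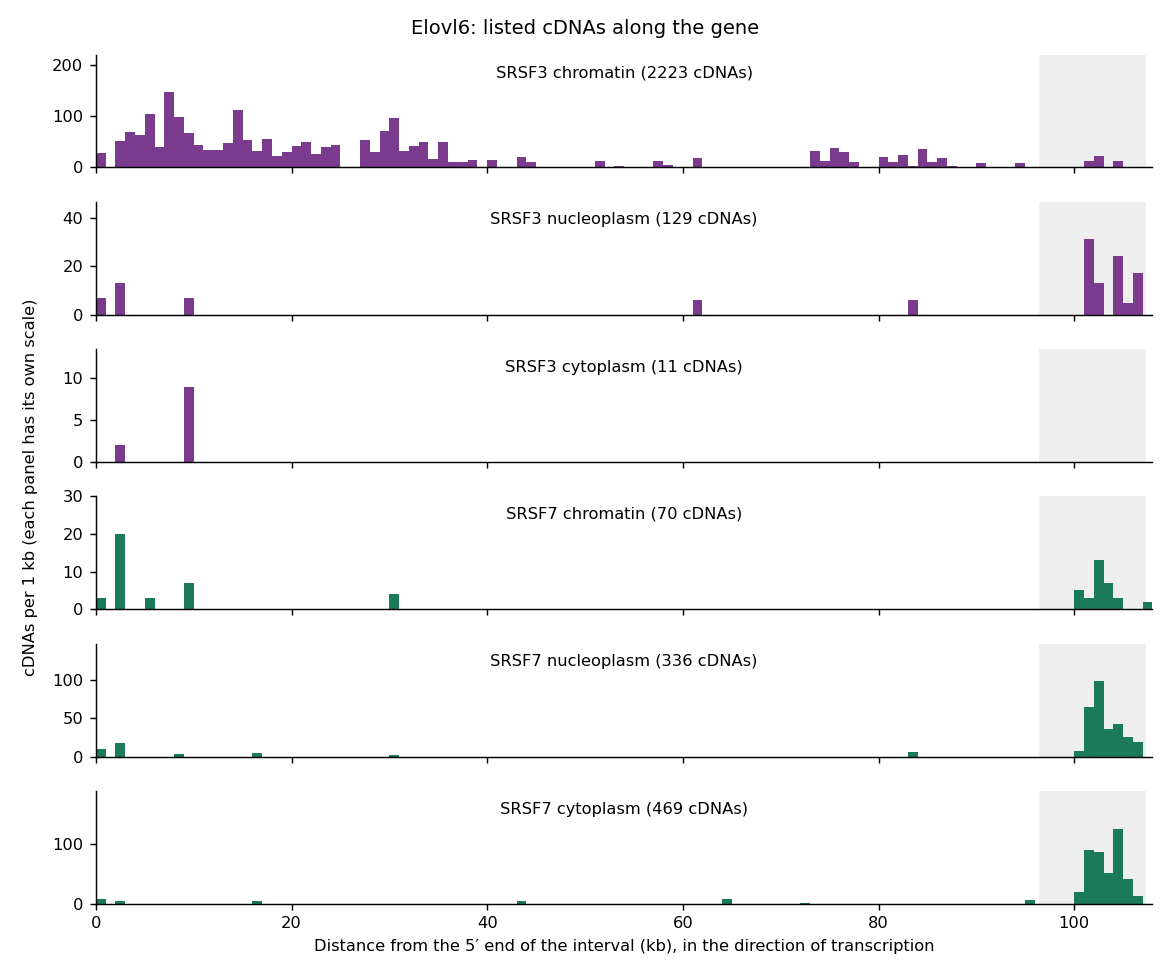
cDNAs per 1 kb along Elovl6, against the distance in kb from the 5′ end of the interval, for SRSF3 (upper 3 panels) and SRSF7 (lower 3 panels) in chromatin, nucleoplasm and cytoplasm, each panel with its own scale. The last decile is shaded; it holds 2.20% of SRSF3 chromatin cDNAs and 91.5% of SRSF7 cytoplasm cDNAs.

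The SRSF7 preference for cytoplasm at Elovl6 lay in this last decile. There SRSF7 had 133 CPM in chromatin against 1168 CPM in cytoplasm (log2 ratio -3.14, -3.69 to -2.62). In the first 9 deciles it had 149 CPM in chromatin and 109 CPM in cytoplasm, and the log2 ratio was 0.45 with an interval that spans 0 (-0.23 to 1.13). The SRSF3 preference for chromatin over cytoplasm lay mainly upstream, with 1229 CPM in chromatin and 42.8 in cytoplasm over the first 9 deciles. In the last decile SRSF3 had 27.7 CPM in chromatin and 0 cDNAs in cytoplasm, at least 2.37-fold higher in chromatin when the cytoplasm is set at 3 cDNAs. SRSF3 was highest there in nucleoplasm, at 285 CPM (229 to 351).

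Clusters were formed by joining the positions of all 6 files in a gene at gaps of up to 30 nt. The clusters described are the fullest of each file, so a ratio between fractions in such a cluster is favoured towards the list that chose it and is a description only. Elovl6 had 234 clusters, of which 172 were listed in SRSF3 chromatin alone and 16 in SRSF7 cytoplasm alone. Of the 1387615 listed positions of the series, SRSF3 chromatin supplied 870234, and the genes were chosen as high in it. No share of such clusters over other loci is given, so their numbers here and at Pgap1 are a description and set neither gene apart. SRSF3 chromatin was spread thinly, over 185 clusters in 66 of 108 bins of 1 kb, and its 5 fullest clusters held 10.2% of its cDNAs. SRSF7 cytoplasm had 47 clusters, 38 of them in the last decile. Of these 47, 5 were also listed in SRSF3 chromatin (10.6% of the SRSF7 cytoplasm clusters, 2.70% of the SRSF3 chromatin ones). SRSF7 nucleoplasm and cytoplasm shared 29 clusters, 76.3% of the 38 nucleoplasm clusters and 61.7% of the 47 cytoplasm clusters.

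In Elovl6, 1 cluster was listed in all 6 files. It is 39 nt long, at chr3:129237762-129237800, 2.44 kb from the 5′ end, and was the fullest cluster of SRSF7 chromatin. From chromatin through nucleoplasm to cytoplasm it held 47, 13 and 2 cDNAs of SRSF3, and 13, 18 and 5 of SRSF7. SRSF7 stood at 52.3 CPM there in chromatin against 13.6 CPM in cytoplasm, a direction that its choice from the SRSF7 chromatin list favours. SRSF3, which did not choose it, had a log2 ratio of chromatin to cytoplasm of 1.77 there (-0.16 to 4.86).

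The fullest Elovl6 cluster in SRSF3 cytoplasm lay 9.53 kb from the 5′ end, at chr3:129244850-129244869. These 20 nt held 9 of the 11 SRSF3 cDNAs in cytoplasm, with 7 in nucleoplasm and 23 in chromatin. SRSF7 had 7 cDNAs there in chromatin and 0 in nucleoplasm and cytoplasm. The SRSF3 level was 13.0 CPM in chromatin against 35.0 CPM in cytoplasm, a direction that the choice from the SRSF3 cytoplasm list favours. Outside this cluster SRSF3 had 2200 cDNAs in chromatin and 2 in cytoplasm, a small cytoplasm remainder that the same choice favours.

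The remaining fullest clusters of Elovl6 stood at the 3′ end, apart from that of SRSF3 chromatin. SRSF3 chromatin was fullest at chr3:129242636-129242729, 7.31 kb from the 5′ end, with 58 cDNAs at 26 positions and no cDNA in the other 5 files. SRSF3 nucleoplasm was fullest at chr3:129341271-129341429, 106 kb from the 5′ end, with 22 cDNAs, where SRSF7 had 20 in nucleoplasm and 21 in cytoplasm. SRSF7 nucleoplasm was fullest at chr3:129338076-129338331 with 50 cDNAs, where SRSF7 cytoplasm had 47 and SRSF7 chromatin 3. That cluster was shared with SRSF3, which had 23 cDNAs in chromatin, of its 49 in the last decile, 7 in nucleoplasm and 0 in cytoplasm. SRSF7 cytoplasm was fullest at chr3:129339702-129340051 with 63 cDNAs, where SRSF7 nucleoplasm had 19, SRSF3 nucleoplasm 13 and both chromatin lists 0.

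Pgap1 differed from Elovl6 in that SRSF3 was also listed at the 3′ end. Its last decile is 8.79 kb long. For SRSF3 it held 271 of 1582 cDNAs in chromatin (17.1%; 15.3 to 19.1), 89 of 130 in nucleoplasm (68.5%; 59.7 to 76.3) and 23 of 27 in cytoplasm (85.2%; 66.3 to 95.8). For SRSF7 it held 0 of 13 in chromatin (0%; 0 to 24.7), 56 of 98 in nucleoplasm (57.1%; 46.7 to 67.1) and 196 of 276 in cytoplasm (71.0%; 65.3 to 76.3). Both proteins thus had a higher share of their Pgap1 cDNAs at the 3′ end in nucleoplasm and cytoplasm than on chromatin.

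On chromatin SRSF3 was listed mainly in the middle of Pgap1. Deciles 4 to 6 held 57.0% of its cDNAs (54.5 to 59.5), the fifth decile alone 538 of 1582, and the median lay 40.3 kb from the 5′ end. The cytoplasm median lay at 83.6 kb for SRSF3 and 83.0 kb for SRSF7, less than 1 kb apart. The tallest SRSF3 chromatin position, chr1:54578153, held 21 cDNAs in the cluster chr1:54578139-54578203. That cluster held 53 SRSF3 cDNAs in chromatin, and it was the fullest of SRSF7 chromatin, with 4 cDNAs, while SRSF7 cytoplasm had 5.

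**Figure D3:**
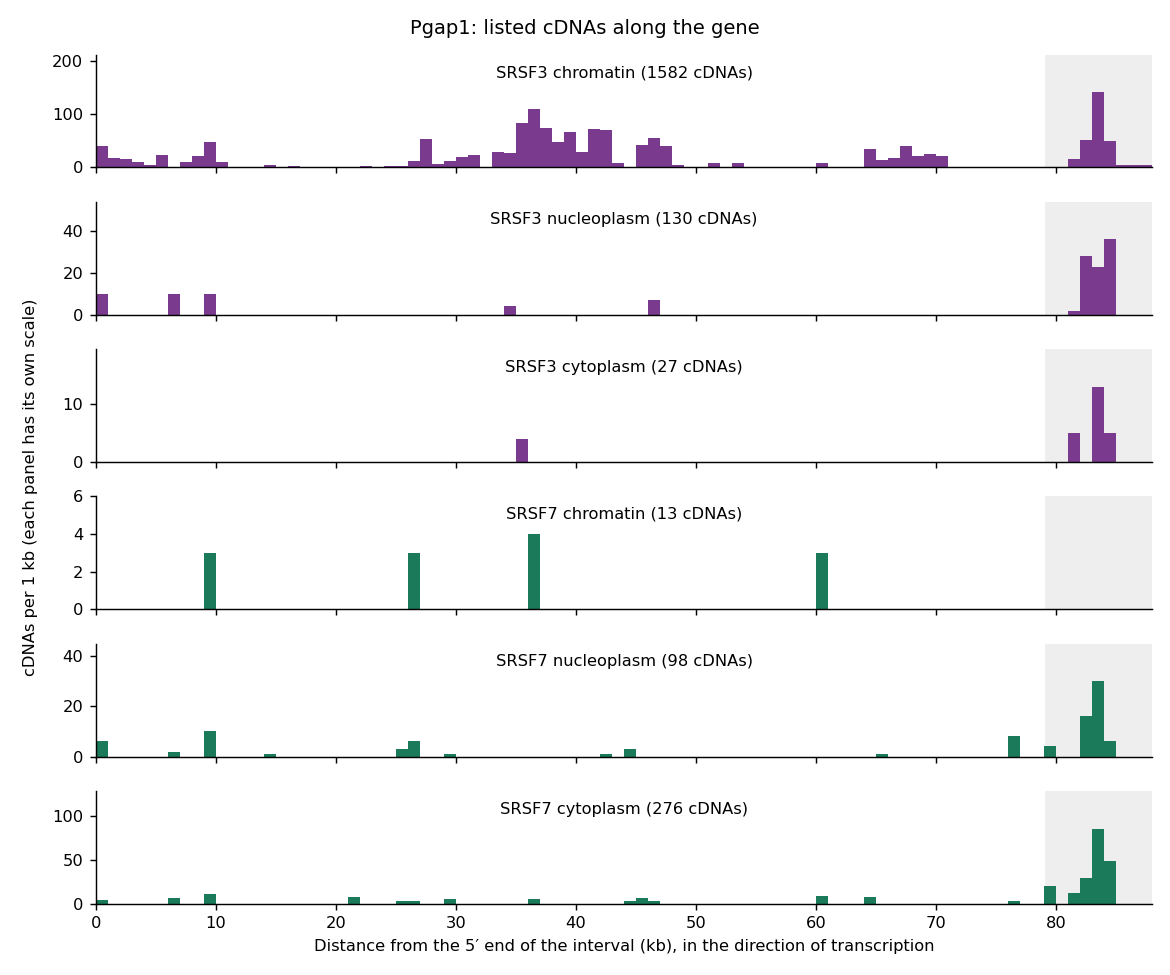
cDNAs per 1 kb along Pgap1, against the distance in kb from the 5′ end of the interval, for SRSF3 (upper 3 panels) and SRSF7 (lower 3 panels) in chromatin, nucleoplasm and cytoplasm, each panel with its own scale. The last decile is shaded; it holds 17.1% of SRSF3 chromatin cDNAs, 85.2% of SRSF3 cytoplasm cDNAs and 71.0% of SRSF7 cytoplasm cDNAs.

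Split by segment, the SRSF3 preference of Pgap1 for chromatin was large upstream. At the 3′ end it was small and depended on the measure. In the first 9 deciles SRSF3 had 741 CPM in chromatin against 15.6 CPM in cytoplasm, from 1311 and 4 cDNAs (log2 ratio 5.57, 4.21 to 7.45). In the last decile it had 153 CPM in chromatin against 89.5 CPM in cytoplasm (log2 ratio 0.78, 0.16 to 1.46). These intervals do not overlap. Counted by positions, the last decile held 213 of the 870234 listed in SRSF3 chromatin and 19 of the 58686 in SRSF3 cytoplasm, a lower share in chromatin. Leaving mitochondrial RNA and the 10 highest loci out of the totals moved the whole-gene ratio from 3.09 to 2.39, and it lowers the last-decile ratio by as much. The direction in the last decile is therefore not settled. By CPM, SRSF3 was highest there in nucleoplasm, at 282 CPM (227 to 347). SRSF7 was higher in cytoplasm in both segments, a direction that the choice of genes favours. Its log2 ratio was -2.06 upstream (-3.03 to -1.20). In the last decile SRSF7 had 0 cDNAs in chromatin against 534 CPM in cytoplasm, at least 44.2-fold higher in cytoplasm when chromatin is set at 3 cDNAs.

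A 342 nt cluster at chr1:54530529-54530870, 83.6 kb from the 5′ end of Pgap1, was the fullest of 5 files. In the same order of fractions it held 65, 17 and 13 cDNAs of SRSF3, and 0, 15 and 37 of SRSF7. The SRSF3 level was 36.8 CPM in chromatin against 50.6 CPM in cytoplasm, and the interval of the log2 ratio of -0.46 spans 0 (-1.33 to 0.52). This cluster alone held 48.1% of the SRSF3 cytoplasm cDNAs of the gene, against 13.4% of the SRSF7 cytoplasm ones. Pgap1 had 160 clusters, 116 of them in SRSF3 chromatin alone, 3 in 5 files and 0 in all 6.

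SRSF7 cytoplasm shared more of its clusters with SRSF3 chromatin at Pgap1 than at Elovl6 and Ktn1. Of 31 SRSF7 cytoplasm clusters, 18 were also listed in SRSF3 chromatin (58.1%, or 12.9% of the 140 SRSF3 chromatin clusters). In the last decile the number was 12 of 16. At the level of positions, 47.6% of the 225 SRSF7 cytoplasm positions lay within 5 nt of an SRSF3 chromatin position (40.9 to 54.3), against 7.73% of 388 for Elovl6 (5.28 to 10.9) and 8.49% of 271 for Ktn1 (5.46 to 12.5). By contrast, 1 of the 225 lay near an SRSF7 chromatin position, a list of 11 positions. SRSF3 chromatin listed 213 positions in the last decile of Pgap1, against 27 in that of Elovl6 and 25 in that of Ktn1. More listed positions leave more room for overlap, and their part in these shares was not tested. No share over other loci is given.

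At Ktn1 the last decile was not the main site of either protein. It held 30 of 444 SRSF3 cDNAs in chromatin (6.76%; 4.60 to 9.51), 0 of 11 in nucleoplasm and 0 of 10 in cytoplasm. For SRSF7 it held 10 of 50 in chromatin (20%; 10.0 to 33.7), 17 of 153 in nucleoplasm (11.1%; 6.61 to 17.2) and 66 of 322 in cytoplasm (20.5%; 16.2 to 25.3). SRSF7 was spread over the gene in cytoplasm, with cDNAs in all 10 deciles. The outermost SRSF7 positions lay 87.0 kb from the 5′ end in chromatin and nucleoplasm and 87.2 kb from it in cytoplasm, short of the end of the interval, which was set by SRSF3 chromatin. The outermost 6.01 kb of the interval lie beyond the end reached by at least 3 files, against 1.18 kb for Elovl6 and 3.31 kb for Pgap1. This limits the comparison of the last decile between the genes. SRSF3 chromatin was listed in the first 2 deciles (106 and 109 of 444 cDNAs), the seventh (104) and the ninth (62).

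SRSF7 at Ktn1 was higher in cytoplasm in both segments. The choice of genes favours that direction, most of all in the first 9 deciles, which held most of the cDNAs. The log2 ratio of chromatin to cytoplasm was -2.16 in the last decile (-3.28 to -1.19) and -2.11 in the first 9 deciles (-2.63 to -1.63). These intervals overlap almost wholly, whereas those of the 2 segments of Elovl6 do not overlap. For SRSF3 the ratio over the first 9 deciles of Ktn1 was 2.59 (1.70 to 3.66), a direction that the choice favours as well.

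**Figure D4:**
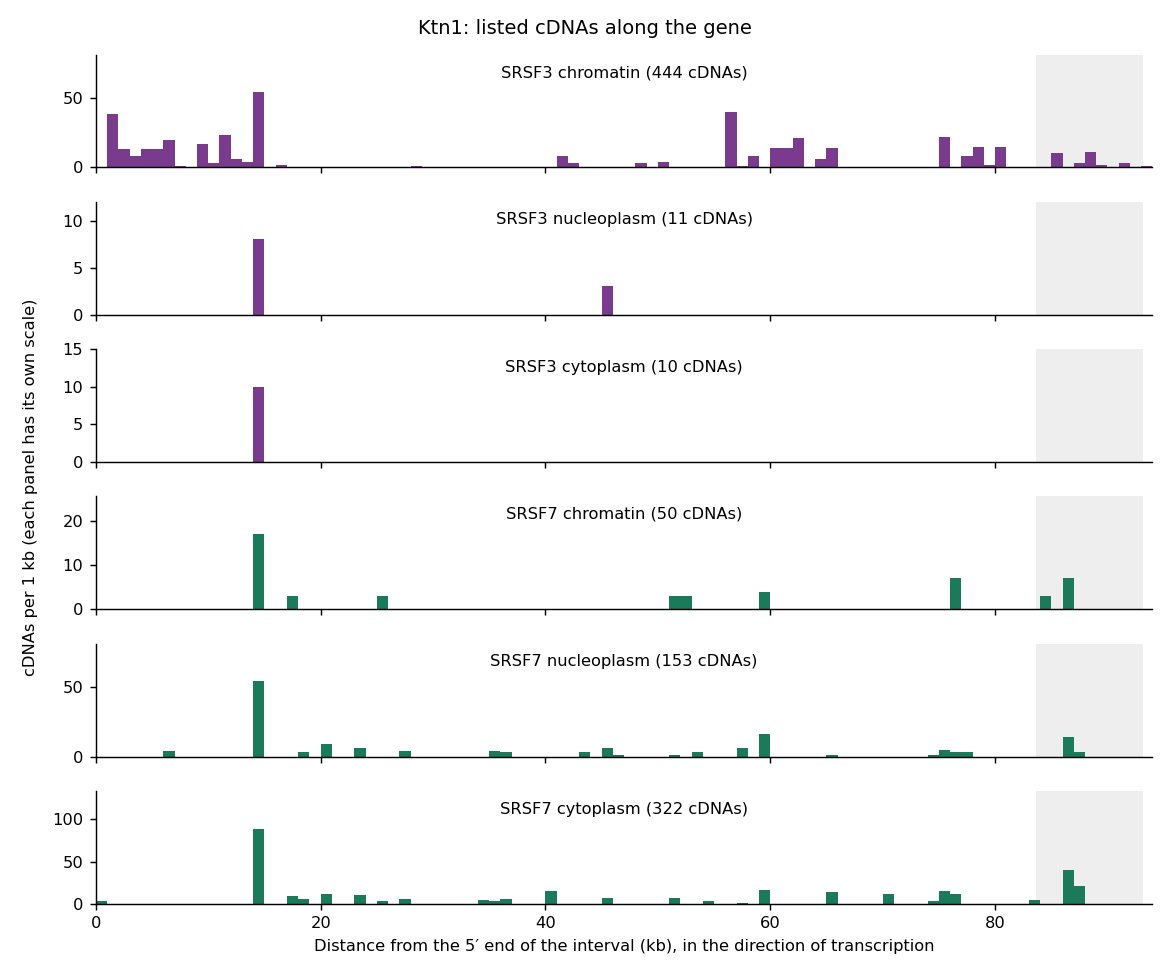
cDNAs per 1 kb along Ktn1, against the distance in kb from the 5′ end of the interval, for SRSF3 (upper 3 panels) and SRSF7 (lower 3 panels) in chromatin, nucleoplasm and cytoplasm, each panel with its own scale, the last decile shaded. The bin at 14 kb is filled in all 6 panels and holds all 10 cDNAs of SRSF3 cytoplasm.

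A cluster of 461 nt near the 5′ end was the fullest of Ktn1 in all 6 files. It lies at chr14:48283422-48283882, 14.4 kb from the 5′ end. By fraction, chromatin first, it held 53, 8 and 10 cDNAs of SRSF3, and 17, 54 and 85 of SRSF7. These are 11.9%, 72.7% and 100% of the SRSF3 cDNAs of the gene, and 34%, 35.3% and 26.4% of the SRSF7 ones.

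Within this Ktn1 cluster SRSF3 showed no separable difference between chromatin and cytoplasm, at 29.97 CPM and 38.9 CPM, and its log2 ratio was -0.38 (-1.37 to 0.76). SRSF7 was lower in chromatin there, at 68.4 CPM against 231 CPM in cytoplasm (log2 ratio -1.76, -2.60 to -0.995). Outside the cluster SRSF3 had 391 cDNAs in chromatin and 0 in cytoplasm, and SRSF7 had 33 and 237. Choosing the fullest cluster lowers the counts left outside it, so these are a description only. The cluster was also the 1 that SRSF7 cytoplasm (27 clusters) and SRSF3 chromatin (77 clusters) had in common along Ktn1. All 6 SRSF3 cytoplasm positions lay within 5 nt of SRSF7 positions of nucleoplasm and of cytoplasm, and 0 of the 6 lay near an SRSF7 chromatin position. All 6 also lay near SRSF3 chromatin positions, and 5 near SRSF3 nucleoplasm positions. At Elovl6, all 11 SRSF3 cytoplasm positions lay near SRSF7 chromatin positions, and 2 of the 11 near SRSF7 nucleoplasm and cytoplasm positions.

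**Figure D5:**
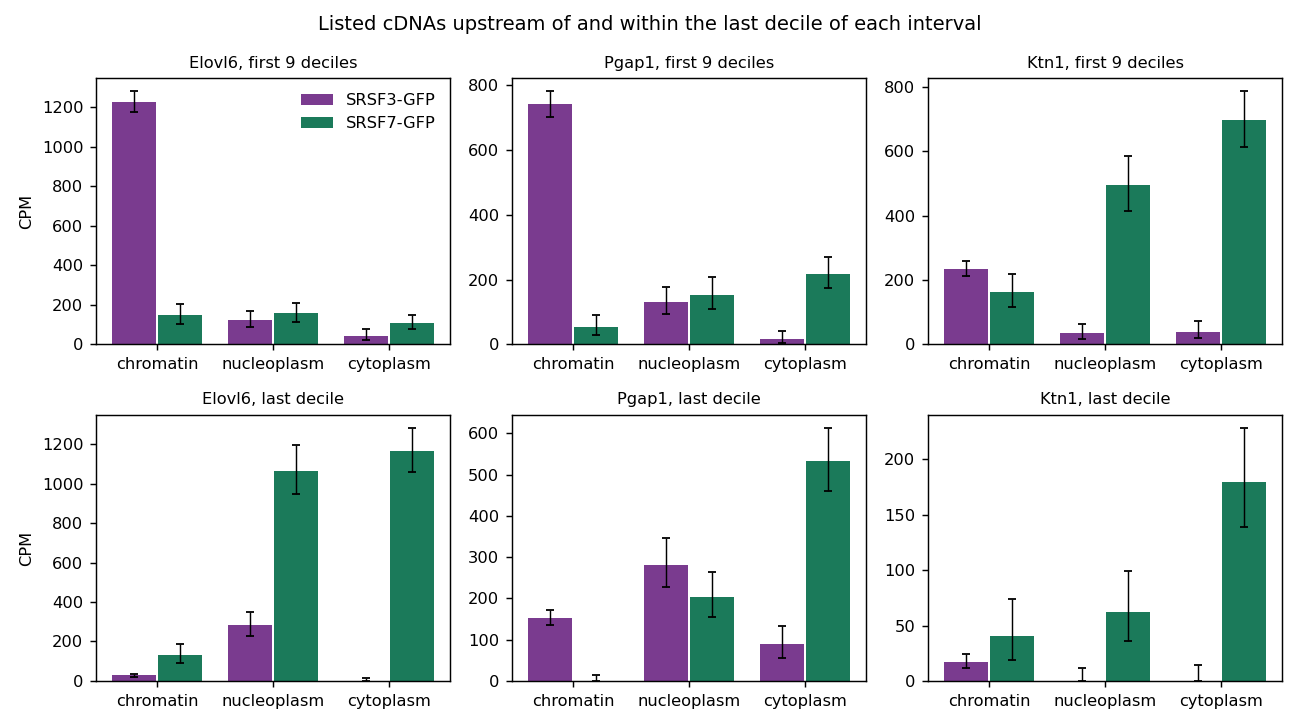
CPM in the first 9 deciles (top row) and the last decile (bottom row) of Elovl6, Pgap1 and Ktn1 by fraction, for SRSF3-GFP and SRSF7-GFP, with exact 95% intervals of counting error. SRSF7 at Elovl6 has overlapping intervals across fractions upstream (149, 156 and 109 CPM) and a low chromatin level in the last decile (133, 1065 and 1168 CPM), whereas SRSF7 at Ktn1 is higher in cytoplasm than in chromatin in both rows.

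The share of each list in the last decile was ranked among long loci, highest first. Of the 89 loci of at least 50 kb compared in both proteins, Elovl6 ranked 2nd, Pgap1 10th and Ktn1 45th by the share of SRSF7 cytoplasm cDNAs in the last decile, where the median was 20.5% (quartiles 1.47% and 56.8%). For SRSF3 chromatin the median share was 4.66%, and Elovl6 ranked 65th, Pgap1 15th and Ktn1 33rd. For SRSF3 cytoplasm the median was 15.4%, with Elovl6 and Ktn1, both at 0, ranked 53rd and Pgap1 19th. For SRSF7 chromatin it was 5.77%, with Elovl6 7th, Pgap1, at 0, 59th and Ktn1 22nd. Elovl6 thus ranked high in both SRSF7 lists and below the median in SRSF3 chromatin. Its SRSF3 cytoplasm share of 0 rests on 11 cDNAs. Nucleoplasm, where the last decile of Elovl6 held 69.8% of the SRSF3 cDNAs, was not ranked. Among the 15 loci of that length with the same opposite preference, the median share of SRSF7 cytoplasm cDNAs in the last decile was 58.1%, with Elovl6 at rank 1, Pgap1 at 4 and Ktn1 at 11. These ranks are a description without a test, over loci passing a 50 kb filter that favours those high in SRSF3 chromatin. The last decile of a locus also depends on its outermost listed position, which limits the comparison of Ktn1 with the other loci.

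Most positions carried 1 cDNA, and few were tall. In the 3 genes, positions with 1 cDNA made up between 50% of those listed (Ktn1, SRSF3 cytoplasm, 6 positions) and 100% (Elovl6, SRSF3 cytoplasm, 11 positions). Over the whole lists their share ran from 61.1% (SRSF3 cytoplasm) to 71.8% (SRSF7 nucleoplasm). In SRSF3 chromatin it was 70.4% over the whole list, beside 65.6% for Elovl6, 72.4% for Pgap1 and 77.3% for Ktn1. The tallest position outside SRSF3 chromatin held 6 cDNAs. Positions with 3 or more cDNAs numbered 179 of 1406 for Elovl6, 108 of 1046 for Pgap1 and 23 of 331 for Ktn1 in SRSF3 chromatin, against 12 of 388, 9 of 225 and 7 of 271 in SRSF7 cytoplasm. The share of such tall positions over the whole lists is not given.

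The profile of the 3 genes over the 6 files was compared over the 589 loci that had at least 10 cDNAs in every file. Likeness was the Euclidean distance between the 6 log2 CPM values after subtraction of each locus's mean, which leaves only the shape of the profile. The 3 loci most like Elovl6 were chr11:83286634-83322281 (plus strand, distance 1.42), chr15:103070468-103077964 (plus, 1.46) and chr4:126698562-126716356 (plus, 1.55), beside a median distance of 5.18 over the 589 loci. Most like Pgap1 were chr8:11608202-11635756 (minus, 1.67), chr11:77499637-77532052 (plus, 1.73) and chr2:90771222-90859539 (plus, 1.78), beside a median of 4.65. Most like Ktn1 were chr2:143771641-143836954 (minus, 1.495), chr11:86067963-86159548 (minus, 1.74) and chr11:106893290-106993469 (minus, 1.91), beside a median of 5.25. The 3 genes lay farther from each other than these nearest loci, which were picked as the smallest distances. Elovl6 was at 2.95 from both others and Pgap1 at 4.43 from Ktn1, all below the medians. Counted from Elovl6, Pgap1 and Ktn1 had ranks 46 and 47. Elovl6 had rank 55 from Pgap1 and 32 from Ktn1. Ktn1 had rank 247 from Pgap1, and Pgap1 rank 136 from Ktn1. The shared rule of choice favours likeness between the genes.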

How the data were processed

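The members, intervals and tests were chosen with earlier results of these data known. Per the file headers, the authors grouped the replicates of each protein and fraction, searched the cDNA hits for peaks with 100 permutations and a 15 nt neighbourhood, and listed positions with a false discovery rate below 0.05 with annotation Ensembl 59. The build is mm9, per the submitters' processing notes. The deposited values are whole-number cDNA counts at 1 nucleotide, not scaled to depth, with a sign that was read as the strand. The SRSF7 track names also hold a term for regions taken as one, while their descriptions say that regions were taken separately. Peak calling may therefore differ between the proteins. The aligner and the peak caller: not given in the sources used here. A weak position passes more easily in a deeper list, and a position not listed is not shown to be unbound.

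From these counts, levels per 1000000 listed cDNAs (CPM), exact intervals, deciles of each interval, clusters (gaps of up to 30 nt) and loci (gaps of up to 10000 nt) were computed in Python 3.11.15 (numpy 2.4.6, pandas 2.3.3, scipy 1.17.1), with plots from matplotlib 3.10.9. Named clusters are the fullest of each gene in each file, and the loci named for likeness are the 3 at the smallest distance. Differences of shares carry Newcombe intervals. Gene lists and markers need an annotation of mm9 and were not analysed here. No sequence is shown, because no mm9 genome was used here.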

Additional observations from a re-analysis of the deposited data

Results flagged for a closer look

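In all 3 genes the log2 ratio of chromatin to cytoplasm had opposite signs in the 2 proteins. SRSF3 minus SRSF7, it differed by 7.06 for Elovl6, 6.93 for Pgap1 and 4.81 for Ktn1. The genes were chosen for this difference, it was not tested, and each ratio rests on 1 pooled list per fraction.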

How the results depend on the processing

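No paired analysis was possible because the replicates of each group were pooled before deposit, and for the same reason no replicate could be left out. The 19 alternative log2 ratios of chromatin to cytoplasm that could be computed and could differ kept their direction, which the choice of genes favours. Widening the intervals by 10 kb could add no position, since each is a locus bounded by longer gaps. With positions in place of cDNAs they moved to 3.11 for Elovl6 and 1.62 for Pgap1 in SRSF3 and to -1.62 for Ktn1 in SRSF7. With at least 2 cDNAs per position they were 4.30 for Pgap1 in SRSF3 and -3.54 for Ktn1 in SRSF7, and leaving mitochondrial RNA and the 10 highest loci out of the totals gave 2.39 for Pgap1 in SRSF3. Filters at 2 or 3 cDNAs left no value for some ratios, because a list was empty there. The share of a gene's cDNAs in its last 5 kb was compared as chromatin minus cytoplasm. It was -41.4 points for Elovl6 in SRSF7, and -53.8 and -50.4 for Pgap1 in SRSF3 and SRSF7. For Ktn1 in SRSF3 it was 3.83, with an interval that spans 0 (-23.96 to 6.05). In the last 2 kb it was -7.59 for Elovl6 in SRSF7, and for Pgap1 it was 0.51 in SRSF3, a reversed sign with an interval that spans 0 (-11.95 to 0.99), and 0 in SRSF7. In the last 10 kb and the last decile it was -71.0 for Pgap1 in SRSF7 and 6.76 for Ktn1 in SRSF3, the latter again spanning 0 (-21.1 to 9.48). With at least 2 or 3 cDNAs per position it was -62.7 and -63.6 for Elovl6 in SRSF7. Counted back from the end reached by at least 3 files, an alternative chosen after seeing the data, it was -68.9 and -63.8 for Pgap1 in SRSF3 and SRSF7. The cause of these shifts was not tested. Beyond that end lie the outermost 3.31 kb of the Pgap1 interval, 1.18 kb of Elovl6 and 6.01 kb of Ktn1. The last 5 kb of Ktn1 thus lie wholly beyond it. Loci beyond 2-fold, in SRSF3 towards chromatin, in SRSF7 towards cytoplasm and in both, numbered 218, 143 and 21. They numbered 121 and 3 (first and last) with loci joined at 1000 nt, 88 and 12 (second and last) with at least 200 cDNAs, 90, 63 and 5 with at least 3 cDNAs per position, and 50, 56 and 4 with positions counted. The 10 to 27 SRSF3 cDNAs in cytoplasm and the 13 SRSF7 cDNAs of Pgap1 in chromatin limit what can be separated.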

Other observations

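The tallest positions of some lists lay outside the fullest clusters. In Elovl6, position chr3:129264142, 28.8 kb from the 5′ end, held 15 SRSF3 cDNAs in chromatin, the most of that list. In SRSF7 cytoplasm, position chr3:129299449, 64.1 kb from the 5′ end, held 6 cDNAs, level with 1 other position, although decile 6 held 8 SRSF7 cytoplasm cDNAs in all, at 2 positions. In Ktn1, position chr14:48286980, 17.96 kb from the 5′ end, held 5 SRSF7 cDNAs in cytoplasm, the most of that list and outside the cluster that was fullest in all 6 files. No value was compared between replicates at these positions.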
